A study of Mus musculus with 36 samples.

Results

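The alpha-2-macroglobulin and murinoglobulin family of the mouse was examined as 5 genes of chromosome 6 (A2m, Pzp, Mug1, Mug2 and Gm7298) among 53379 genes in the count tables. The members were chosen by symbol, and the family was selected on earlier results of these data in which Gm7298 was higher in kidney tumors than in control and non-transformed kidneys. All comparisons of the members with those kidneys that rest on these values are therefore given as descriptions, with no test.

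RNA was sequenced from 36 formalin-fixed, paraffin-embedded libraries of 7 groups, which came to 28 samples once libraries of the same animal and tissue were summed. In 6 Sglt2-Cre; ASPSCR1-TFE3 LSL/+ mice, Cre recombinase under the Sglt2 promoter, active in the proximal tubule of the kidney, removes a stop cassette (LSL) and switches on the ASPSCR1-TFE3 fusion of translocation renal cell carcinoma. These mice gave kidney tumors (6 mice, 11 libraries), retro-orbital tumors (4 mice), brain tumors (3 mice) and non-transformed kidney (4 mice), and 3 Sglt2-Cre mice without the fusion allele gave control kidneys (6 libraries). Non-transformed kidney thus carries the Cre and the fusion allele too. Dysmorphic kidneys of 5 Pax8-Cre; ASPSCR1-TFE3 LSL/+ fetuses were set beside kidneys of 3 age-matched control fetuses, labelled Pax8-Cre, although the series text allows for controls with the LSL allele alone. Pax8-Cre acts in the developing kidney epithelium. Sample titles of dysmorphic fetuses 1 to 3 and controls 1 and 2 shared 1 prefix, and those of dysmorphic fetuses 4 and 5 and control 3 another. The prefix entered only an alternative fit. Ages were not given in the labels. The 6 fusion mice carry the numbers of their kidney tumors, and tissues with the same number came from the same animal.

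Library totals ranged from 80205573 to 121415057 counts, and levels are given as CPM, counts scaled to library size with TMM factors, as mean ± SD over animals. A count of 3 in an animal, the floor used below, corresponded to at most 0.0394 CPM, and covers counting error only. Sex was read from Y-linked transcripts: mice 1 and 5, dysmorphic fetuses 1 to 3 and control fetus 1 were male, and all other animals, including the 3 control mice, were female. Kidney markers (6 genes, among them Umod and Slc34a1) summed to between 3899 and 4944 CPM in control and non-transformed kidneys but to between 17.1 and 3208 CPM in kidney tumors, so the tumors held very unequal amounts of kidney transcript. Fetal kidneys were at 189 CPM or less for the same sum.

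Alpha-macroglobulins are large secreted inhibitors that trap proteases. A protease cleaves an exposed stretch, the bait, the inhibitor closes around it, and a reactive thioester links both covalently before the complex is cleared through the receptor Lrp1. In the mouse, Pzp (pregnancy zone protein) and the murinoglobulins Mug1 and Mug2, which act as single chains, are plasma proteins made mainly by the liver. A2m carries the symbol of alpha-2-macroglobulin, and Gm7298 is a murinoglobulin-like gene without a functional name.

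A2m, Gm7298, Mug1 and Mug2 lie in that order on the plus strand of chromosome 6, at 121635376 to 121679227, 121732932 to 121789084, 121838541 to 121889057 and 122006761 to 122085965 (GENCODE vM21, build GRCm38). Pzp lies farther along, on the minus strand, at 128483567 to 128526720. GENCODE lists Gm7298 as protein coding, while RefSeq lists it as a pseudogene. Its annotated coding sequence of 4428 bases in 36 exons was an uninterrupted reading frame of 1476 codons, the same length as that of Mug1. Aligned over their whole length, the predicted proteins of Gm7298 and Mug1 were 90.0% identical, those of Gm7298 and Mug2 88.5% and those of Mug1 and Mug2 91.9%. Against A2m and Pzp, Gm7298 was 58.3% and 51.7% identical.

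All 5 reading frames held the thioester site, the residues glycine, cysteine, glycine, glutamate and glutamine, each once and each in exon 24. The coding stretches around it are shown because they separate A2m and Pzp from the murinoglobulins but not the murinoglobulins from each other. Capitals mark the codons of the site, and the stretches lie at chr6:121668078-121668140 (A2m, plus strand), chr6:128491578-128491640 (Pzp, minus strand) and chr6:121779076-121779138 (Gm7298, plus strand) of GRCm38.
A2m: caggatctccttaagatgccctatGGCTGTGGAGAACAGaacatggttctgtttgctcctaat
Pzp: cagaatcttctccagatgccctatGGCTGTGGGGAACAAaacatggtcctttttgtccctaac
Gm7298: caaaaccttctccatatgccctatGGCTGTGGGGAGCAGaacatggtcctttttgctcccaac
Over these 63 bases Mug1 and Mug2 had 0 differences from Gm7298, while A2m had 13 and Pzp had 8.

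Elsewhere the murinoglobulin genes could be told apart. The next stretches, in exon 11 (codons 389 to 409), are those where Gm7298 and Mug1 differed most among stretches of this length within 1 exon ahead of the thioester site. Capitals mark bases that differ from Gm7298. They lie on the plus strand at chr6:121761626-121761688 (Gm7298), chr6:121857426-121857488 (Mug1) and chr6:122037121-122037183 (Mug2).
Gm7298: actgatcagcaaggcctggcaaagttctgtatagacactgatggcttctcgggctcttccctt
Mug1: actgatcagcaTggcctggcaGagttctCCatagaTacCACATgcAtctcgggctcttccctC
Mug2: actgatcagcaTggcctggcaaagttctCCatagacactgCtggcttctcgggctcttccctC
Mug1 had 12 differences from Gm7298 here and Mug2 had 5.

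How reads that match several genes were counted is not given in the sources used here, so the share of each transcript that is also in its relatives was computed. Of all 50-base words in the Gm7298 transcript, 10% were also in Mug1 and 8.27% in Mug2, and 17.2% were in any of Mug1, Mug2, A2m, Pzp, the relative A2ml1 or the pseudogenes Mug4-ps, Mug-ps1 and Gm10319. At 100 bases the last share was 4.21%. For Mug1 the 50-base share was 32.9% and for Mug2 50.5%, with 37.1% of the Mug2 words in the pseudogene Mug-ps1. A2m and Pzp shared 0% of their 50-base words with the other genes searched. Among the genes searched, A2m and Pzp thus shared no such word, Gm7298 shared fewer than Mug1 and Mug2, and Mug1 and Mug2 counts are the least certain. The rest of the genome was not searched.

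All members were low in most tissues and high in a few animals. A2m and Pzp had a count in each of the 36 libraries, Mug1 in 29, Gm7298 in 27 and Mug2 in 21. The largest counts in a single library were 29636 for Gm7298, 21824 for Pzp, 8145 for A2m, 3206 for Mug1 and 169 for Mug2.

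**Figure D1:**
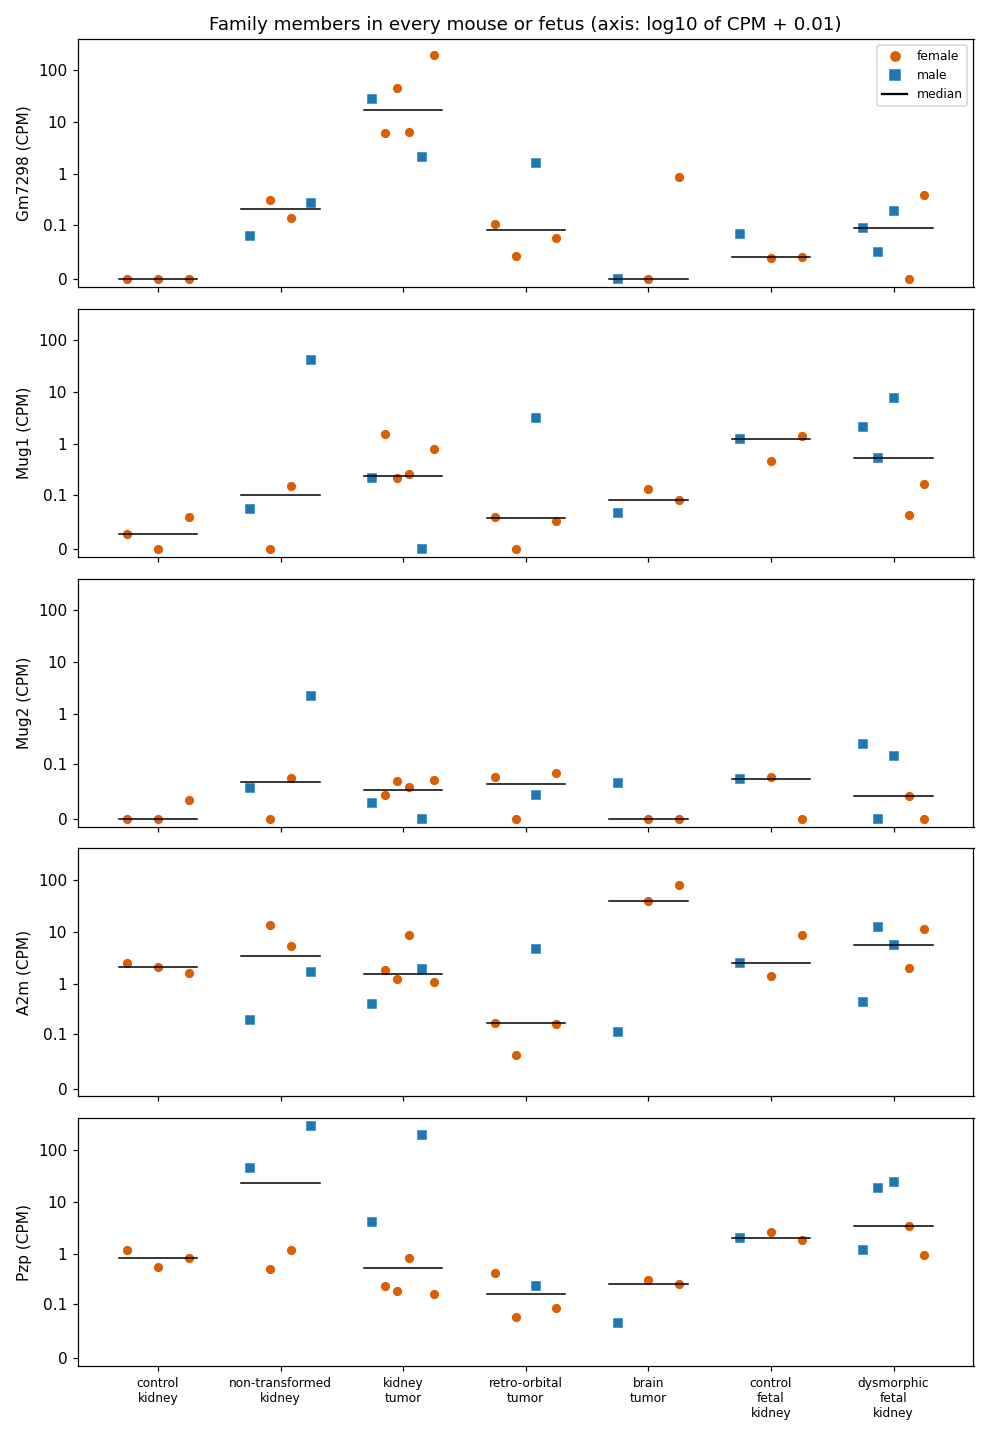
Level of each member in every mouse or fetus (CPM, on a log10 scale after adding 0.01), by group, with circles for females, squares for males and a bar at the median. Gm7298 was highest in the 6 kidney tumors, A2m in brain tumors 2 and 4, Pzp in kidney samples of males, and Mug1 and Mug2 in 1 non-transformed kidney.

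Gm7298 stood out in kidney tumors. Its levels there were 28.8, 6.23, 45.6, 6.65, 2.16 and 199 CPM in mice 1 to 6, with a mean of 48.0 ± 75.7 CPM (n = 6). It had 0 counts in all 3 control kidneys. Non-transformed kidneys of mice 1, 3, 4 and 5 held 0.0563, 0.317, 0.136 and 0.276 CPM. Fusion markers (Gpnmb, Gla, Rragb and the proliferation gene Mki67) summed to between 148 and 534 CPM in these non-transformed kidneys and to between 51.0 and 68.4 CPM in controls, with Gpnmb at 111 CPM or more in the former and 2.51 CPM or less in the latter. Their part in the Gm7298 level there was not tested. Every tumor was above every non-transformed and control kidney, and mouse 6 was far above the rest.

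Against the floor of the control kidneys, the tumor mean was at least 3346-fold higher and the lowest tumor, that of mouse 5, at least 151-fold higher. Compared to non-transformed kidney, the log2 fold change was 7.90 (SE 1.58), 6.48 without mouse 6 and 8.39 without mouse 5, and 6.17 (SE 1.15) with mouse as a block in the animals that gave both tissues. Per kilobase of gene model, the only scale on which genes can be set beside each other, the mean level of Gm7298 in kidney tumors was 10.3 CPM per kb, compared to 5.05 for Pzp, 0.363 for A2m, 0.0889 for Mug1 and 0.00532 for Mug2. The Pzp mean rested on mouse 5, at 29.4 CPM per kb, where the other tumors were at 0.0247 to 0.638, and that of Gm7298 leaned on mouse 6, at 42.7, where the others were at 0.464 to 9.78. In single tumors Gm7298 was the highest of the 5 genes per kb in mice 1, 2, 3, 4 and 6 and Pzp in mouse 5. In mouse 4 this order rested on the length used. Gm7298 was at 1.43 and A2m at 1.24 CPM per kb, but at 6.65 and 8.70 CPM before division. The A2m gene model has 7021 bases and its main transcript 4605. These values rank levels after division by gene length. They say neither which gene supplied the most counts nor how much protein was made.

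The rise was present in both tumor libraries of each animal that had 2 libraries. The pairs were 20.6 and 36.2 CPM in mouse 1, 4.07 and 8.08 in mouse 2, 75.6 and 14.9 in mouse 3, 4.34 and 8.92 in mouse 4, and 103 and 275 in mouse 6. Mouse 5 had a single tumor library at 2.13 CPM. Tumor libraries of the same animal thus differed by up to several fold, and the lowest of them was still above every non-transformed and control kidney.

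**Figure D2:**
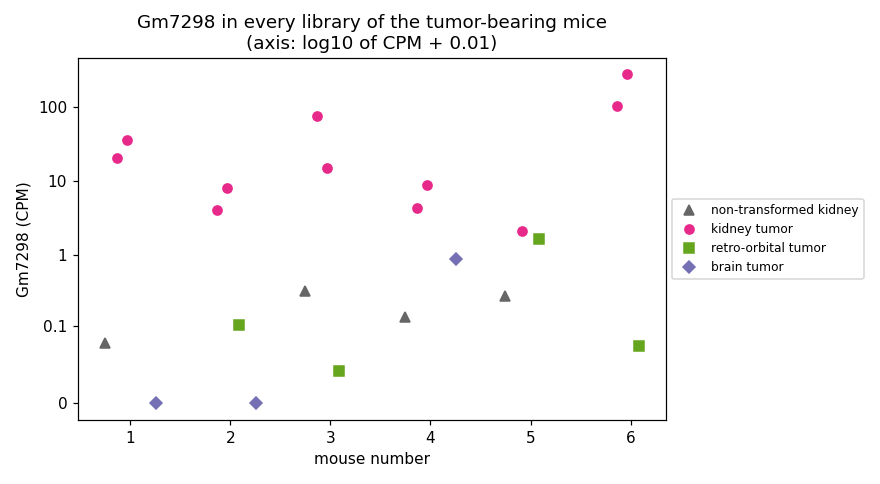
Gm7298 in every library of the 6 fusion mice (CPM, on a log10 scale after adding 0.01), by mouse, with a symbol for each tissue. Kidney tumor libraries ran from 2.13 to 275 CPM, above each other tissue of the same mouse.

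The tumors with the most kidney transcript were among those with little Gm7298. Kidney marker sums were 769, 102, 49.2, 2914, 3208 and 17.1 CPM in tumors 1 to 6, so that mouse 6, with the lowest sum, had the most Gm7298 and mouse 5, with the highest sum, the least. Mouse 2 did not follow this order, at 102 CPM of kidney markers and 6.23 CPM of Gm7298. The part of unequal tissue content in the spread of Gm7298 was not tested. In bulk samples, fewer cells of a type and less RNA per cell cannot be told apart.

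Outside the kidney, tumors of the same mice held little Gm7298. Retro-orbital tumors of mice 2, 3, 5 and 6 were at 0.105, 0.0174, 1.68 and 0.05 CPM, and brain tumors of mice 1, 2 and 4 were at 0, 0 and 0.873 CPM. All 7 were below the lowest kidney tumor. In mouse 5 the retro-orbital value lay close to the 2.16 CPM of its kidney tumor. That retro-orbital tumor held 413 CPM of kidney markers, compared to 28.7 CPM or less in the others. Their part in its Gm7298 level was not tested. The log2 fold change against kidney tumor was -6.72 (SE 1.90) for retro-orbital and -7.30 (SE 2.44) for brain tumors, given without a test because the kidney tumor values had led to the choice of the gene. The retro-orbital value was -9.96 without mouse 5 and -4.92 without mouse 6, and the brain value -5.93 without mouse 6. Without mouse 4 the brain tumors left were both at 0. Between brain and retro-orbital tumors, where Gm7298 could be tested, the log2 fold change was -0.68 with an adjusted p of 0.888 (edgeR quasi-likelihood test, Benjamini-Hochberg adjustment), and 95% limits of -4.76 and 3.40. The value was -0.09 without mouse 1 and -8.68 without mouse 4, whose brain tumor held the only Gm7298 counts of its group. Fusion markers summed to between 3457 and 8018 CPM in kidney tumors and to between 3459 and 6284 CPM in the other tumors. The part of fusion activity in the Gm7298 level was not tested.

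In fetal kidneys Gm7298 was low, with between 0 and 48 counts per fetus. Dysmorphic kidneys 1 to 5 held 0.0834, 0.0232, 0.188, 0 and 0.396 CPM and control kidneys 1 to 3 held 0.0633, 0.0149 and 0.0166 CPM. The groups overlapped, and the gene did not pass the filter on low counts, so no test was made. The order of group means ran from kidney tumor through retro-orbital tumor (0.462 CPM), brain tumor (0.291), non-transformed kidney (0.196), dysmorphic fetal kidney (0.138) and control fetal kidney (0.0316) to control kidney (0). Below kidney tumor, the SD of each group that follows in this order down to control fetal kidney was at least 0.0275 CPM and neighbouring groups overlapped, apart from control kidney, which stood at 0 in every animal.

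The make-up of the family counts differed accordingly. Gm7298 supplied the largest part in kidney tumors 1, 2, 3 and 6, A2m in kidney tumor 4 and Pzp in kidney tumor 5. A2m led in each of the control kidneys and in all brain tumors. These are shares of counts, which were not divided by gene length.

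**Figure D3:**
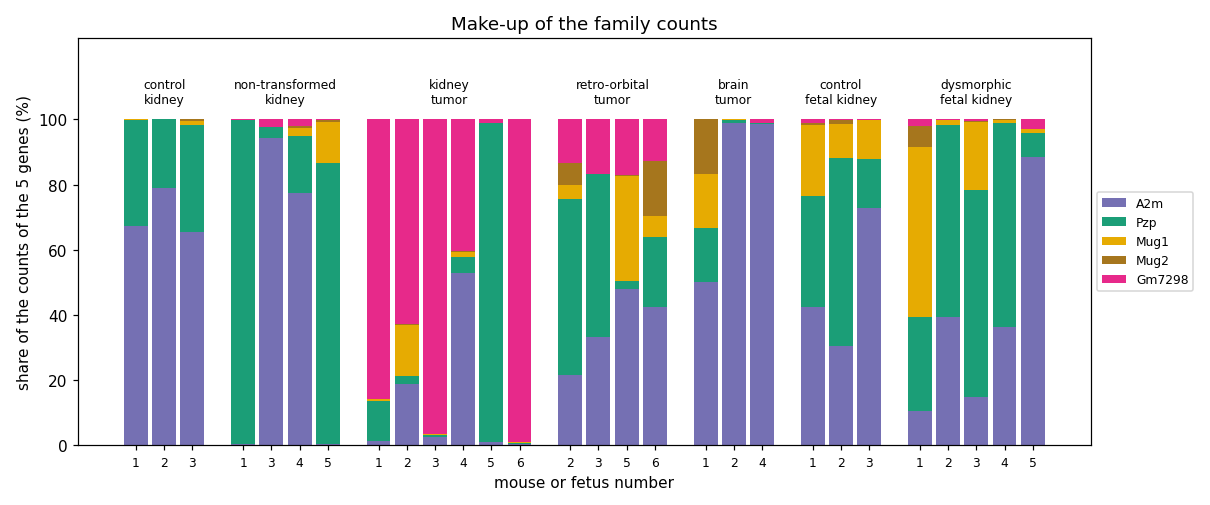
Share of the summed counts of the 5 genes (%) supplied by each member, 1 bar per mouse or fetus, by group. Gm7298 (pink) filled most of 4 kidney tumor bars, A2m (violet) led in every control kidney and brain tumor, and totals differ between bars, so the bars show shares and not amounts.

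Genes with the most similar pattern to Gm7298 across the 28 samples, among 14108 genes with a mean log2 CPM of at least 1, were Atg7 (Pearson r = 0.881), which acts in autophagosome formation, Vcam1 (0.880), a leukocyte adhesion molecule, Spib (0.867), a transcription factor of B cells and plasmacytoid dendritic cells, Hbegf (0.856), an epidermal growth factor receptor ligand, and Nlrp10 (0.856). The samples share animals and libraries, and the correlations are descriptions. Within the family, r with Gm7298 was -0.093 for A2m, -0.136 for Pzp, 0.030 for Mug1 and -0.075 for Mug2.

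Pzp followed a different pattern, with its high values in kidney samples of males. Non-transformed kidneys of the males 1 and 5 held 44.9 and 286 CPM, and those of the females 3 and 4 held 0.515 and 1.20 CPM. Control kidneys, all female, were at 1.21, 0.564 and 0.835 CPM. The 2 male kidneys were above all female kidneys, with no overlap, and the female fusion kidneys lay about as high as the controls.

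Kidney tumors repeated this split. Pzp was at 4.09 and 189 CPM in the tumors of the males 1 and 5, and at 0.235, 0.189, 0.817 and 0.159 CPM in those of the females 2, 3, 4 and 6. In mouse 1 a single library carried nearly all of it, with 8.33 CPM beside 0.0750 CPM in the other. Both male tumors were above all female tumors. Kidney marker sums in the male tumors were 769 and 3208 CPM, and the part of kidney tissue within these tumors was not tested.

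Male tumors outside the kidney did not share the high level. The retro-orbital tumor of mouse 5 had 0.237 CPM, among 0.422, 0.0520 and 0.0833 CPM in mice 2, 3 and 6. The brain tumor of mouse 1 was at 0.0380 CPM, compared to 0.309 and 0.252 CPM in mice 2 and 4. With 2 adult males, 1 of which gave each of these tumors, sex and animal cannot be told apart.

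For non-transformed against control kidney, which asks what differs in the kidney of fusion mice outside the tumors, 0 of 2 tested members were called, where 0.00952% of all genes were called. At an unadjusted p under 0.05 the count was 1, Pzp, and DESeq2 called 1, again Pzp. The log2 fold change of Pzp was 6.67 (SE 2.18, adjusted p = 0.306, edgeR). It was 0.00 with sex as a covariate and -0.02 in females alone (2 fusion mice and the 3 controls), so the difference did not hold within females. A2m had a log2 fold change of 1.30 (SE 1.02, adjusted p = 0.636, edgeR). Kidneys of mice 3 and 4 held 13.4 and 5.27 CPM of A2m and those of mice 1 and 5 held 0.197 and 1.72 CPM, around the 1.66 to 2.51 CPM of the controls, so the groups overlapped. Libraries of the same control could differ widely. The pairs of A2m counts were 301 and 224, 2 and 456, and 76 and 298 in control mice 1, 2 and 3.

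The pattern across samples was closest to Pzp for Cyp7b1 (r = 0.897), an oxysterol hydroxylase. Gm28437 (0.861), Gm4076 (0.8505), Serpina1b (0.844), a plasma protease inhibitor, and Gm28661 (0.835) followed in this order. Gm28437, Gm4076 and Gm28661 are annotated as pseudogenes.

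In retro-orbital compared to kidney tumors, 0 of 3 tested members were called, where 17.7% of all genes were called. The count at an unadjusted p under 0.05 was 1 (Pzp), and DESeq2 called 0 of the 2 for which it gave an adjusted p. Pzp had a log2 fold change of -7.35 (SE 2.66, adjusted p = 0.0828, edgeR), -0.91 in females alone and -2.02 with mouse as a block. The fold thus rested on the male tumor of mouse 5, and in females the levels of both tumor types were under 1 CPM.

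A2m and Mug1 in this comparison turned on the retro-orbital tumor of mouse 5. A2m was at 4.68 CPM in that tumor and at 0.169, 0.0347 and 0.167 CPM in mice 2, 3 and 6, compared to 0.417, 1.87, 1.24, 8.70, 1.95 and 1.09 CPM in kidney tumors 1 to 6. Mug1 was at 3.16 CPM in the same tumor and at 0.0316 CPM or less in mice 2, 3 and 6. The log2 fold changes were -1.01 for A2m (adjusted p = 0.619) and 0.64 for Mug1 (adjusted p = 0.815, edgeR). Without mouse 5 they became -4.41 (adjusted p = 0.0395) and -4.98 (adjusted p = 0.0240), and both genes were then called lower. That tumor also held 9.20 CPM of the astrocyte gene Gfap, compared to 0.10 CPM or less in the other retro-orbital tumors, and 413 CPM of kidney markers, compared to 28.7 CPM or less. Its sums of all 6 brain and all 12 hepatocyte markers were 45.1 and 37.8 CPM, compared to at most 20.8 and 5.48 CPM in the others. Their part in the result was not tested.

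A2m was highest in brain tumors. Levels were 0.114, 39.1 and 79.0 CPM in mice 1, 2 and 4. The tumors of mice 2 and 4 were above all other samples of the series, while that of mouse 1 lay below every kidney tumor. A2m is known to be made by astrocytes, and Gfap, an intermediate filament of astrocytes, was at 0.171, 118 and 150 CPM in the same 3 tumors. The 6 brain markers together gave another order, with sums of 119, 987 and 338 CPM in mice 1, 2 and 4, and the neuronal gene Rbfox3 was highest in mouse 1, at 87.9 CPM. In kidney tumors the sums ran from 12.0 to 76.96 CPM. None of them was at the floor throughout a group. The part of brain tissue in the A2m level was not tested.

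Compared to kidney tumors, 0 of 3 tested members were called in brain tumors, where 8.74% of all genes were called. The count at an unadjusted p under 0.05 was 2 (A2m and Pzp), and DESeq2 called 1, A2m. The log2 fold change of A2m was 4.02 (SE 1.32, adjusted p = 0.0859, edgeR). It was called by DESeq2 (adjusted p = 0.00909), in the joint fit of all groups (0.0480), with libraries not summed per animal (0.0272) and without mouse 1 (0.0498), and not with mouse as a block (log2 fold change 2.41, adjusted p = 0.596). Pzp was at -7.23 (SE 3.18, adjusted p = 0.172) and -0.27 in females alone, and Mug1 at -2.55 (SE 1.36, adjusted p = 0.254, edgeR).

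Against retro-orbital tumors, 0 of 3 tested members were called in brain tumors, where 1.73% of all genes were called. At an unadjusted p under 0.05 the count was also 0, and DESeq2 called 1, A2m (adjusted p = 0.0288). A2m had a log2 fold change of 4.97 (SE 2.15, adjusted p = 0.240, edgeR), and 8.91 in females alone (adjusted p = 0.0180). For Pzp it was 0.05 (95% limits -1.72 and 1.81), the narrowest interval of the members here.

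The genes closest to A2m across samples were Sox2 (r = 0.790), a transcription factor of neural stem and glial cells, Pde1c (0.783), Ttyh1 (0.783), Cntn1 (0.781), a neuronal adhesion molecule, and Kcnip3 (0.775). In kidney tumors the highest A2m, 8.70 CPM in mouse 4, came with the highest Gfap, 17.8 CPM, where the other kidney tumors had 0.141 CPM or less. Of the A2m counts of that mouse, 1504 came from 1 tumor library and 180 from the other.

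**Figure D4:**
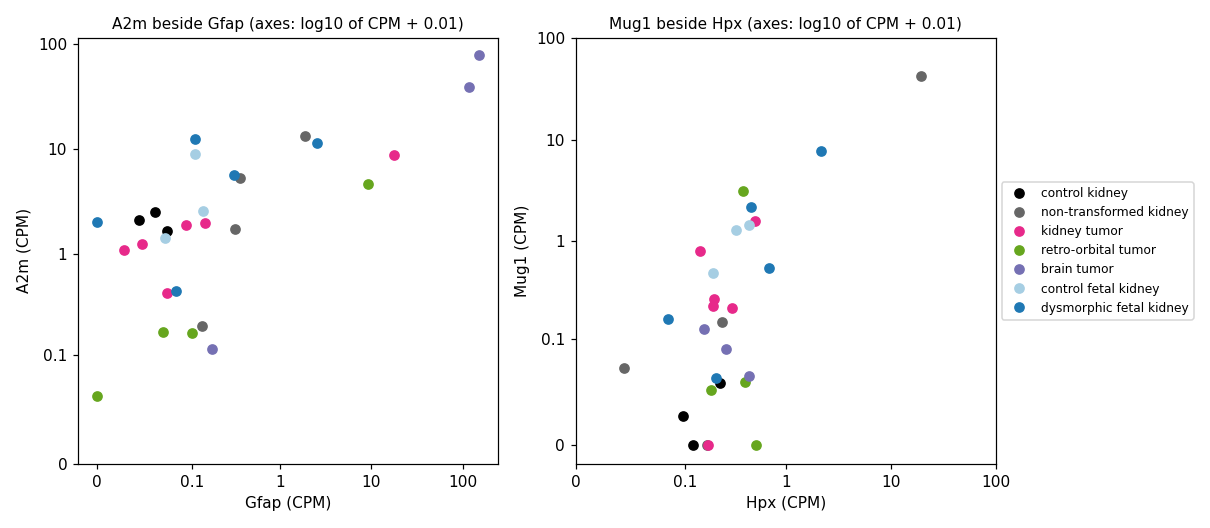
A2m beside the astrocyte gene Gfap (left) and Mug1 beside the hepatocyte gene Hpx (right), in CPM on log10 scales after adding 0.01, with 1 point per mouse or fetus in the color of its group. Brain tumors 2 and 4 lie at the upper right on the left side, and non-transformed kidney 5 at the upper right on the right side.

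Mug1 and Mug2 were raised together in a single adult kidney. The non-transformed kidney of mouse 5 held 42.1 CPM of Mug1 and 2.22 CPM of Mug2, while those of mice 1, 3 and 4 held at most 0.153 and 0.0509 CPM. In control kidneys Mug1 was at 0.00957, 0 and 0.0311 CPM, and Mug2 did not exceed 3 counts in any animal. Kidney tumors held 0.223, 1.57, 0.216, 0.264, 0 and 0.803 CPM of Mug1, all far below the kidney of mouse 5. Across the 28 samples, r between Mug1 and Mug2 was 0.794. Elsewhere they could part: the retro-orbital tumor of mouse 5 had 347 counts of Mug1 and 2 of Mug2, and kidney tumor 2 had 335 and 4. Mug2 did not pass the filter on low counts in any comparison.

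Most hepatocyte markers were also highest in that kidney, 9 of 12 among the 4 non-transformed kidneys. Hpx (hemopexin) was at 19.3 CPM, Ahsg (fetuin A) at 16.2 CPM and Fgb (fibrinogen beta chain) at 56.3 CPM, compared to at most 0.237, 0.373 and 1.97 CPM in the other non-transformed kidneys. The others went the other way. Gc (vitamin D binding protein) was lowest in it, at 74.3 CPM compared to between 144 and 194 CPM, Afp was lowest as well (1.69 CPM), and Ttr (142 CPM) was below the 219 CPM of mouse 1. None of the 12 markers was at the floor throughout a kidney group, and their sum was 530 CPM in this kidney and between 333 and 445 CPM in the others, where Alb alone was at 28.1 CPM or more. The part of liver transcript in Mug1 and Mug2 was not tested. Pzp in the kidney tumor of mouse 5 was at 189 CPM with 0.171 CPM of Hpx and 0.121 CPM of Ahsg. In the same tumor Fga (49.4 CPM) and Ttr (67.0 CPM) were the highest of the 6 kidney tumors and Apoh (8.58 CPM) was second to mouse 1, while the sum of the 12 markers, 211 CPM, lay within the 140 to 459 CPM of all kidney tumors. The part of liver transcript in this Pzp level was not tested.

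For Mug1, the kidney tumor to non-transformed kidney log2 fold change was -4.38 (SE 1.94) and 3.14 without mouse 5, a change of direction that rested on that kidney. Compared to control kidney it was 5.19 (SE 1.66), from between 0 and 7 counts in the controls. The part of reads shared with Gm7298 in these tumors was not tested. The 5 closest patterns to Mug1 were those of Gm14138 (r = 0.860), Gm12191, Rps6-ps1, Gm8019 and Rps27rt, of which the first 4 are annotated as processed pseudogenes.

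Upstream sequence was listed in RefSeq for Mug1, Mug2 and Pzp. It is shown for Mug1 and Mug2, both raised in the non-transformed kidney of mouse 5, up to the first base that GENCODE counts as exon, from chr6:121838291-121838540 and chr6:122006548-122006760 (plus strand, build GRCm38.p6). Aligned, they were 95.2% identical over 206 bases. Capitals mark GTTAAT on either strand, the letters with which the consensus site of the hepatocyte factor HNF1 begins.
Mug1: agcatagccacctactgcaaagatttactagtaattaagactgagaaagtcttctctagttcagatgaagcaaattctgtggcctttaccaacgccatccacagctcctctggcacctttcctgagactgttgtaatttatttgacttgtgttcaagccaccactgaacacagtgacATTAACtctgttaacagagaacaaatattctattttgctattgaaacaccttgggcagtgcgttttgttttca
Mug2: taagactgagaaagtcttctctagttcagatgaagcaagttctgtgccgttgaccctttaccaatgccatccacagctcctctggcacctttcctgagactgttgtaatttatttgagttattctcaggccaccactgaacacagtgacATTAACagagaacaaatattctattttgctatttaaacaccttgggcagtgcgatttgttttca
GTTAAT was found once in each of the Mug windows (250 bases before to 50 after the RefSeq start) and 2 times in that of Pzp, and in 7.10% of all 32851 promoter windows. CACGTG, the letters bound by TFE3 and its relatives, TCACGTGA and TTCNNNGAA, the letters of a STAT site, were in none of the 3 windows, and in 7.15%, 0.974% and 8.30% of all windows. TCACGTGA contains CACGTG. These counts concern letters in these windows and not the binding of a factor.

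In fetal kidneys, which address the fusion during development, 0 of 3 tested members were called, where 2.67% of all genes were called. The count at an unadjusted p under 0.05 was also 0, and DESeq2 called 0. Pzp in dysmorphic kidneys 1 to 5 was at 1.19, 18.6, 23.7, 3.46 and 0.940 CPM, compared to 2.04, 2.66 and 1.85 CPM in controls 1 to 3. Fetuses 2, 3 and 4 were above all controls, and fetuses 1 and 5 below them. The log2 fold change was 2.09 (SE 1.13, adjusted p = 0.350, edgeR), and -0.06 in females alone.

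The hepatocyte markers did not move as one list with Pzp. Of the 12, Ahsg, Alb, Apoa2 and Apoh were higher in each of these 3 kidneys than in all other fetal kidneys, with Ahsg at 18.9, 17.8 and 6.01 CPM in fetuses 2, 3 and 4, compared to 1.18 CPM or less in the other fetal kidneys. Alb was at 204, 195 and 58.0 CPM in them and at 12.5 CPM or less in the others. Apoa1 was at 5.48, 8.40 and 1.35 CPM in them, at 333, 221 and 474 CPM in dysmorphic kidney 5 and controls 2 and 3, and at 0.313 and 0.443 CPM in dysmorphic kidney 1 and control 1. Cps1 was at 1247, 2120 and 2372 CPM in dysmorphic kidney 5 and controls 2 and 3, and at 12.9 CPM or less in the others. The sum of the list was 415, 385 and 109 CPM in fetuses 2, 3 and 4, between the 2008, 2431 and 3585 CPM of dysmorphic kidney 5 and controls 2 and 3 and the 17.3 and 88.2 CPM of dysmorphic kidney 1 and control 1. The part of liver transcript in fetal Pzp was not tested.

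Mug1 in dysmorphic kidneys was at 2.16, 0.542, 7.74, 0.0355 and 0.165 CPM and in controls at 1.29, 0.484 and 1.46 CPM. The groups overlapped, with a log2 fold change of 0.94 (SE 1.42, adjusted p = 0.760, edgeR) that turned to -1.82 with sex as a covariate and to -0.62 without dysmorphic fetus 3. A2m was at 0.438, 12.4, 5.59, 1.998 and 11.5 CPM in dysmorphic and at 2.55, 1.41 and 8.86 CPM in control kidneys, with a log2 fold change of 0.54 (SE 1.01, adjusted p = 0.814, edgeR).

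Of 5 receptors and partners of the family, 2 were higher and 1 lower than in control kidney, where 19% of all genes were called, and the list's median log2 fold change was -0.04 beside 0.05 over all genes tested. Lrp1, the receptor that clears macroglobulin-protease complexes, rose (log2 fold change 1.42, SE 0.36, adjusted p = 0.0255), and so did Lrp8 (2.91, SE 0.54, adjusted p = 0.00826, edgeR). Lrpap1, a chaperone of these receptors, fell (-1.45, SE 0.41, adjusted p = 0.0381, edgeR). Lrp2 (megalin), an endocytic receptor of the proximal tubule, was at 566 to 4820 CPM in kidney tumors and 6505 to 6671 CPM in controls, with no overlap, and a log2 fold change of -1.66 (SE 0.74, adjusted p = 0.136, edgeR). In the same tumors kidney markers summed to between 17.1 and 3208 CPM, compared to between 4162 and 4873 CPM in controls, fibroblast markers to at least 921 CPM, compared to at most 611 CPM, and macrophage markers to at least 172 CPM, compared to at most 164 CPM. Their part in the receptor levels was not tested. Lrp8 was called in each of 9 fits that left out 1 animal, Lrp1 in 6 and Lrpap1 in 2. Against non-transformed kidney, a comparison with the same tumors in which 17.1% of all genes were called, the log2 fold changes were 1.15 for Lrp1, 2.68 for Lrp8 and -1.41 for Lrpap1, all called. With mouse as a block, adjusted p was 0.0440 for Lrp1, 0.0779 for Lrp8 and 0.139 for Lrpap1.

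Lrp1 levels were 523, 647, 721, 370, 496 and 219 CPM in kidney tumors 1 to 6 and 148, 181 and 234 CPM in control kidneys. The groups overlapped through the tumor of mouse 6 alone, the one with the most Gm7298. Retro-orbital tumors held 669 to 1363 CPM of Lrp1 and were called higher than kidney tumors (log2 fold change 1.04, SE 0.32, adjusted p = 0.0487, edgeR), but only 1 of 6 fits without a mouse called it. In the fetal comparison 0 of the 5 genes were called.

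Relatives outside the family were measured as 6 genes, C3, C4a, C4b, Hc, Cd109 and A2ml1. Of these, 3 were higher in kidney tumors than in controls and 0 lower, where 19% of all genes were called. The median log2 fold change was 2.90 over the list and 0.05 over all genes tested. Cd109, a membrane-bound relative of the macroglobulins, rose by 4.97 (SE 0.58, adjusted p = 9e-04, edgeR). Its levels were 71.5, 117, 187, 32.4, 74.5 and 106 CPM in kidney tumors, compared to 2.74, 2.83 and 3.94 CPM in control kidneys and 3.18 to 10.5 CPM in non-transformed kidneys, with no overlap. It was called in all 9 fits that left out 1 animal, and against non-transformed kidney also with mouse as a block (3.55, adjusted p = 0.0329, edgeR). Hc (complement C5) rose by 4.64 (SE 1.09, adjusted p = 0.0204, edgeR), and A2ml1, which lies 13101 bases from Pzp, by 3.97 (SE 0.93, adjusted p = 0.0199, edgeR) from levels under 0.01 CPM. These were called in 7 and 6 of the 9 fits.

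Cd109 was called also in retro-orbital compared to kidney tumors (log2 fold change 1.43, SE 0.40, adjusted p = 0.0324) and in dysmorphic compared to control fetal kidneys (1.79, SE 0.34, adjusted p = 0.0402, edgeR). The first was called in 4 of 6 fits without a mouse and with mouse as a block (adjusted p = 0.0202). The second was called in 2 of 8 fits that left out a fetus, with adjusted p up to 0.180. With the title prefix as a block it was not called (log2 fold change 1.84, adjusted p = 0.0526, edgeR). Fetal levels were 145, 114, 214, 191 and 112 CPM in dysmorphic and 65.2, 34.7 and 30.3 CPM in control kidneys. These groups did not overlap. A2ml1 was called higher in retro-orbital than in kidney tumors (7.94, adjusted p = 0.0413, edgeR), but 103 CPM in the tumor of mouse 5 stood beside at most 0.0174 CPM in mice 2, 3 and 6, and 0 of 4 fits that left out a mouse called it.

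Of the proteases that macroglobulins can trap, 5 of 14 tested were higher and 2 lower in kidney tumors than in controls, where 19% of all genes were called (2940 higher and 1534 lower of 23578). Mmp14 rose by 2.63 (SE 0.38), Adamts4 by 3.44 (SE 0.34), Mmp2 by 2.73 (SE 0.66), Plat, the tissue plasminogen activator, by 2.5024 (SE 0.75) and the mast cell chymase Cma1 by 3.24 (SE 0.78). Klkb1 (plasma prekallikrein) fell by 5.26 (SE 1.02) on the log2 scale, but from a low level. It was at 0.107 to 0.250 CPM in controls and at most 0.0207 CPM in kidney tumors. Mmp13 was also lower, by a log2 fold change of -1.04. Markers of other cell types moved as well, with 3 of 6 fibroblast and 4 of 6 macrophage markers higher and 0 lower. Fibroblast markers summed to between 921 and 2064 CPM in kidney tumors and between 338 and 611 CPM in controls, and macrophage markers to between 172 and 693 CPM compared to between 144 and 164 CPM. Their part in the protease and inhibitor levels was not tested.

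Of 16 other protease inhibitors, 6 were higher and 2 lower, beside the same 19% called of all genes, among which calls were also more often higher. Serpina3n rose by 7.50 (SE 0.89), Timp1 by 6.18 (SE 0.65) and Timp2 by 2.42 (SE 0.39), while Timp3 was at -1.21 and Serpinc1 (antithrombin) at -1.22. Of the IL-6 and acute phase list, which holds the signalling that induces alpha-2-macroglobulin in rat liver, 4 of 15 were higher and 0 lower: Stat3 (1.51), Socs3 (2.26), Cebpb (2.31) and Lcn2 (3.86). Over all genes, 19% were called in either direction, and 2940 of 23578 were called higher. A2m itself had a log2 fold change of 0.29 (SE 0.81) in the same comparison, and -0.67 without mouse 4. Over the 12 lists, 39 genes were called against control kidney, but 19, 13 and 15 without control mouse 1, 2 or 3. Mmp14, Adamts4, Serpina3n, Timp1, Timp2 and Socs3 were called in all 9 fits that left out 1 animal. Against non-transformed kidney 36 genes were called, and 8 with mouse as a block.

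Around the family, 51 other genes are annotated within 250 kb of a member. In kidney tumors compared to controls, 3 of the 23 tested were called higher (Iqsec3, Foxm1 and A2ml1) and 2 lower (Fkbp4 and Gm10069), where 19% of all genes were called. Against non-transformed kidney 1 was higher (Foxm1) and 2 lower (Phc1 and Fkbp4) of 21, where 17.1% of all genes were called. Of the pseudogenes beside the Mug genes, Mug4-ps had a mean of 0.0384 CPM and Mug-ps1 of 0.0346 CPM in kidney tumors, and Mug-ps1 reached a mean of 0.939 CPM in non-transformed kidney.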

How the data were processed

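The authors deposited raw counts per gene in 2 tables (28 libraries of the Sglt2-Cre and 8 of the Pax8-Cre experiment), from stranded total RNA without removal of ribosomal RNA. The submitters' processing notes name STAR 2.5.2a, Bowtie2 and build GRCm38, and the counter is not given in the sources used here. Of counts from 1 to 20 in a library, 79.04% to 84.33% were even, so halved counts were an alternative. Of 53379 genes, 53274 matched GENCODE vM21 when the version was ignored.

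Members and gene lists were chosen with earlier results of these data known. Counts were summed per animal and tissue and tested in edgeR 4.0.16 (R 4.3.3) on the groups of each comparison alone (TMM, filterByExpr, quasi-likelihood F-test, Benjamini-Hochberg adjustment over all genes tested, called under 0.05). SE was derived from the log2 fold change and its F statistic, and 95% limits from the SE. The code was tested on simulated data. Named genes were the members, the 108 genes of 12 lists (105 matched), genes within 250 kb of a member and the 5 genes most correlated with each member over log2(CPM + 0.5). An animal with over 50 CPM of Y-linked transcripts was taken as male.

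Tissues of one mouse pair the samples, since they came from the same animal. Deviations of same-numbered tissues correlated by 0.324 to 0.393 for kidney and retro-orbital tumors, by -0.0866 to 0.118 for kidney tumor and non-transformed kidney, and by -0.165 to -0.101 for kidney and brain tumors. Fetal numbers pair no samples, and p-values measure the spread between these animals. DESeq2 1.42.0 and the other alternatives are in the closing section.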

Additional observations from a re-analysis of the deposited data

Results flagged for a closer look

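In groups of 4 to 10 animals, the gap from the highest or lowest value to the nearest one was set against the whole range (Dixon's 95% limits), over 20 pairs of member and group. In 10 pairs the highest value stood apart, where chance would flag about 1 group in 20 if values were independent and normally distributed. The levels here were skewed and members share animals, so the rate expected for them was not measured, and 7 of the 10 were samples of mouse 5.

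In non-transformed kidney, mouse 5 stood apart for Pzp (286 CPM, nearest 44.9), Mug1 (42.1 CPM, nearest 0.153) and Mug2 (2.22 CPM, nearest 0.0509). In retro-orbital tumors, mouse 5 stood apart for A2m (4.68 CPM, nearest 0.169), Mug1 (3.16 CPM, nearest 0.0316) and Gm7298 (1.68 CPM, nearest 0.105). Among kidney tumors, mouse 5 stood apart for Pzp (189 CPM, nearest 4.09), mouse 4 for A2m (8.70 CPM, nearest 1.95) and mouse 6 for Gm7298 (199 CPM, nearest 45.6). The kidney tumor values of Gm7298 had led to its choice, so this last flag is a description and not a test. Among dysmorphic fetal kidneys, fetus 3 stood apart for Mug1 (7.74 CPM, nearest 2.16).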

How the results depend on the processing

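The number of members called was 0 in each of the 5 tested comparisons and changed under few alternatives. It was 1 (Pzp higher) for non-transformed against control kidney with DESeq2 and with libraries not summed per animal. For retro-orbital against kidney tumor it was 1 (Pzp lower) in the joint fit of all groups and 2 (A2m and Mug1 lower) in females alone, and leaving out each mouse gave 0 to 2. For brain against kidney tumor it was 1 (A2m higher) with DESeq2, in the joint fit and with libraries not summed, and 0 to 1 without each mouse. For brain against retro-orbital tumor it was 1 (A2m higher) with DESeq2 and in females alone. Females alone was an alternative chosen after seeing the data. Summing Mug1, Mug2 and Gm7298 changed no call of A2m or Pzp. Of the other alternatives, RLE and upper quartile factors, no filter and halved counts left each count at 0.

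With the replicate block (mouse), 0 members were called in retro-orbital and in brain compared to kidney tumors, as without it. List genes called in kidney tumor against non-transformed kidney numbered 36, but 8 with the replicate block, 11 in females alone and 13 to 36 without each mouse. Against control kidney they numbered 39, and 13 to 49 without each mouse or control, with 19, 13 and 15 without control 1, 2 and 3. These fits have fewer animals.

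Directions turned for Mug1 in retro-orbital against kidney tumor (-3.72 with the replicate block, -5.20 in females alone, -4.98 to 1.79 without each mouse) and in fetal kidneys (-1.82 with sex as a covariate, -0.50 with the replicate block of title prefix, -3.27 in females alone, -0.62 to 1.25 without each fetus). Gm7298 turned to 2.91 in females alone for brain against retro-orbital tumor, where it ran from -8.68 to -0.09 and Pzp from -0.28 to 0.54 without each mouse. Of the values described without a test, A2m turned in kidney tumors against control kidney (-0.67 to 0.55 without each animal) and against non-transformed kidney (-1.98 to 0.20), Pzp against control kidney (5.20, but -1.25 in females alone) and Mug1 against non-transformed kidney (-4.38, but 0.73 with the replicate block and 3.17 in females alone). In females alone Pzp was -0.0219 for non-transformed against control kidney and -0.0649 in fetal kidneys. The cause was not tested. Of the member fold changes under alternatives, 350 kept direction and call, 11 passed the threshold, 13 turned and 12 described values moved by more than an SE. Brain and retro-orbital tumors shared 1 mouse, so no block could be fitted there. At 0 counts, the floor of 3 limits what could be seen of Gm7298 and Mug2, and shared sequence limits Mug1 and Mug2.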
